A study of Arabidopsis thaliana with 88 samples.

Results

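Transposable element (TE) fragments shorter than 500 bp are the remains of mobile DNA that make up most of the annotated TE pieces of Arabidopsis thaliana, a small selfing plant. They were the Araport11 gene-body entries of class transposable element whose end minus start was under 500 bp, a choice that used no methylation value. There were 19549 of them among 62018 annotated entries, against 8972 TE fragments of 500 to under 2000 bp and 2668 of 2000 bp or more. The shortest had 9 bp and the median 140 bp, and 7627 were under 100 bp long. Of the short fragments, 9984 lay under 3 Mb from the centre of a centromere, 3637 lay 3 to under 5 Mb away and 5928 lay 5 Mb or more away. A protein-coding locus was overlapped by 3716 of them and a TE gene by 1753, and 950 overlapped some other TE fragment, so that they share sequence with it.

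The levels came from whole-genome bisulfite sequencing of untreated leaves, in 88 libraries of 32 natural accessions, which are inbred lines of wild origin known by number. The accessions were 1254, 1741, 4807, 5210, 5486, 5772, 5779, 5784, 5856, 6021, 6024, 6069, 6076, 6184, 6189, 6220, 6244, 6909, 6911, 6966, 8244, 8366, 9057, 9412, 9470, 9512, 9518, 9588, 9845, 9888, 9905 and 10012, with 1 to 4 libraries each, and 6909 is Col-0, the line of the reference genome. Plants of all accessions grew on soil at 21 °C with 16 h of light, and a sample pooled leaves of 2 to 3 plants at about the 14-leaf stage, so that levels are averages over leaf cell types. Replicates were separate rounds of sowing and collection, and accessions 5486, 9512 and 9845 had 1 library.

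In plants a cytosine can be methylated when it stands in CG, in CHG or in CHH, with H for A, C or T. CG methylation is copied at each cell division by the maintenance enzyme MET1. CHG methylation is maintained by CMT3, which is recruited by dimethylated lysine 9 of histone H3, a mark of silent chromatin. CHH methylation has a pair of sources, CMT2 in the bodies of long heterochromatic TEs, and DRM2, which small RNAs guide in RNA-directed DNA methylation and which is known for acting at short TEs, TE edges and TEs in the chromosome arms. The level of CHH relative to CHG, and its course along the chromosome, were therefore described beside the levels themselves. The annotation files used here give no TE family for these fragments.

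Each deposited value is the methylated fraction of a locus in a library, without coverage, so the depth behind it is unknown, and levels are given here as percentages. A value of exactly 1 in CHH was read as no data. By that reading a short fragment had no data in 11.4% to 13.9% of cases in the 4 libraries of 6909 and in 27.6% to 45.3% in the other 84 libraries, and 680 fragments had none in any library. A level was used where at least 80% of the libraries had a value, which held for 7306 short fragments in CG, 4405 in CHG and 8611 in CHH, with 4095 passing in all 3 contexts. Fragments under 100 bp passed least often, in 24.4% of cases in CHH, against 68.1% of those of 400 bp or more. Near the centromeres 3553 of 9984 passed in CHH, against 3284 of 5928 in the distant arms. The values below are about these covered fragments and not about the rest.

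Short fragments carried methylation in all 3 contexts, at lower levels than longer fragments. Over the 32 accessions the CG level was 42.8% ± 2.33 (SD, n = 32), from 36.2% in 9512 to 47.4% in 6184. The CHG level was 9.70% ± 1.13, from 7.32% in 10012 to 11.99% in 6911, and the CHH level was 3.74% ± 0.433, from 3.00% in 1741 to 4.91% in 6911. All 3 levels stood below those of fragments of 500 to under 2000 bp, with differences in percentage points of -6.38 ± 0.626 (CG), -4.93 ± 0.523 (CHG) and -0.871 ± 0.172 (CHH). Against fragments of 2000 bp or more, whose levels were 73.8%, 34.0% and 7.80%, the differences were -30.96 ± 1.74 (CG), -24.3 ± 2.22 (CHG) and -4.06 ± 0.671 (CHH). Each of these differences had the same sign in 32 of 32 accessions, with an adjusted p of 1.1e-05 in a two-sided sign-flip permutation test, the smallest that 100000 resamples adjusted over 34 tests gave. Here and below, this test and the SD over accessions measure agreement between accessions read at the same fragments. They do not measure the spread between fragments. With CHG values of exactly 1 kept, the CHG difference to the middle class turned to 2.04. With all values as deposited, where each exact 1 counts as 100%, the differences to the middle class were 11.3 (CG), 23.2 (CHG) and 15.5 (CHH), and those to the longest class 15.3 (CHG) and 16.5 (CHH).

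**Figure D1:**
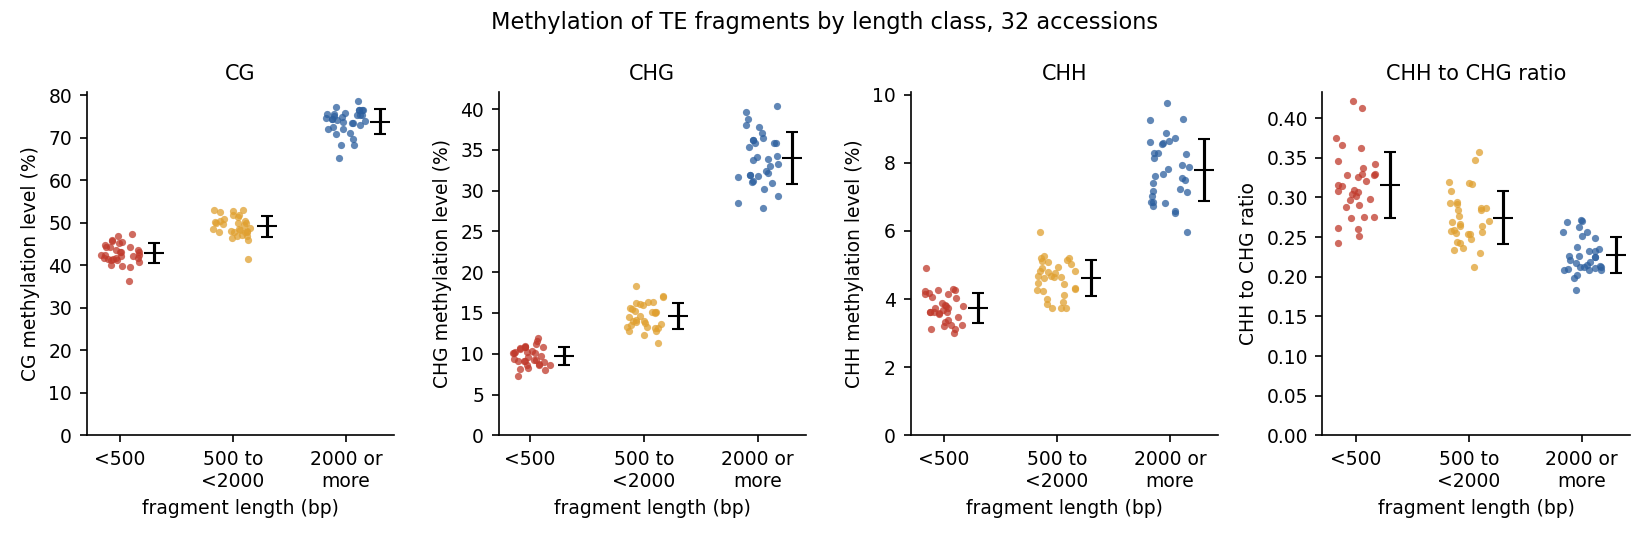
Methylation level in CG, CHG and CHH (percent) and the CHH to CHG ratio for TE fragments of 3 length classes, with 1 point per accession and the mean ± SD over 32 accessions beside them. The short fragments have the lowest levels, with means of 42.8%, 9.70% and 3.74%, and the highest ratio, 0.316.

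The CG level of short fragments is bracketed rather than fixed, because a CG value of exactly 1 can be full methylation or missing data. Such values made up 10.8% of the CG values at fragments whose other values averaged under 2%, and 42.3% where the others averaged 30 to under 60%. With all of them taken as missing, an alternative added after the data were seen, the CG level was 13.8%. In CHG the share of exact ones was much alike at low and high levels, 13.2% where the other values averaged under 2% and 14.4% where they averaged 30 to under 60%, and those values were left out of every CHG level.

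The mean levels came from a minority of the fragments. Of the 4405 short fragments with CHG and CHH, 2054 had a mean CHG level under 1% and 2389 a mean CHH level under 1%, and the median fragment had 1.29% CHG and 0.812% CHH. At the upper quartile the levels were 15.6% and 4.08%. For comparison, 8926 protein-coding loci with a CG level under 2% read 0.407% in CHG and 0.429% in CHH, used below as a floor. When the 4095 fragments with all contexts were sorted by their mean levels, 34.6% were low in every context (CG and CHG under 10%, CHH under 5%). A further 20.8% had CHG of at least 10% with CHH of at least 5%, 11.99% had CHG of at least 10% with CHH under 5%, and 7.20% had CG of at least 50% with the other contexts low. The second largest class, 24.2%, had CG of 10 to under 50% with CHG and CHH low. A further 53 fragments (1.29%) had CHH of at least 5% while CHG stayed under 10%. Among fragments of 2000 bp or more, 76.6% were high in both CHG and CHH and 2.50% were low in every context. These classes count a CG value of exactly 1 as full methylation. At fragments whose other CG values averaged under 2%, such ones were 10.8% of values in short fragments and 1.02% in the longest class. Some fragments can therefore leave the low class for that of CG of 10 to under 50% through missing data. The shares were not recomputed without these values.

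On average, CHH methylation was lower than CHG methylation in short fragments, by less in proportion than in longer ones. Over the 4405 fragments with both contexts, CHG was 9.70% and CHH 3.03%, a difference of 6.67 ± 1.05 percentage points that was positive in 32 of 32 accessions (adjusted p = 1.1e-05, sign-flip permutation test). Unless stated, CHH levels elsewhere rest on more fragments. Here and below, the ratio is mean CHH to mean CHG over fragments with both contexts. It was 0.316 ± 0.0420, from 0.242 in 8366 to 0.421 in 6244. It exceeded the ratio of fragments of 500 to under 2000 bp by 0.0411 ± 0.0118 and that of fragments of 2000 bp or more, 0.227, by 0.0881 ± 0.0267, each in 32 of 32 accessions (adjusted p = 1.1e-05). These signs turned when CHG values of exactly 1 were kept, to -0.0512 and -0.0503, which adds a share of ones to the denominator. With the floor of the lowly methylated protein-coding loci subtracted first, an alternative added after the data were seen, the excess over the longest class was 0.0654.

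Across fragments, CHG and CHH rose together, with a Spearman correlation of 0.816 over 4405 short fragments and 0.847 over 1921 fragments of 2000 bp or more, values from the same libraries. CHH above CHG was rare where CHH was appreciable. Among short fragments with CHH of at least 5% it was found in 40 of 903, against 5 of 1483 fragments of 2000 bp or more. Over all levels it was found in 1299 of 4095 short fragments (31.7%), against 32 of 1921 (1.67%). At 5 Mb or more from a centromere centre it was found in 777 of 1655 (46.9%). The median over 1806 fragments there was 0.521% in CHG and in CHH, close to the floor.

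**Figure D2:**
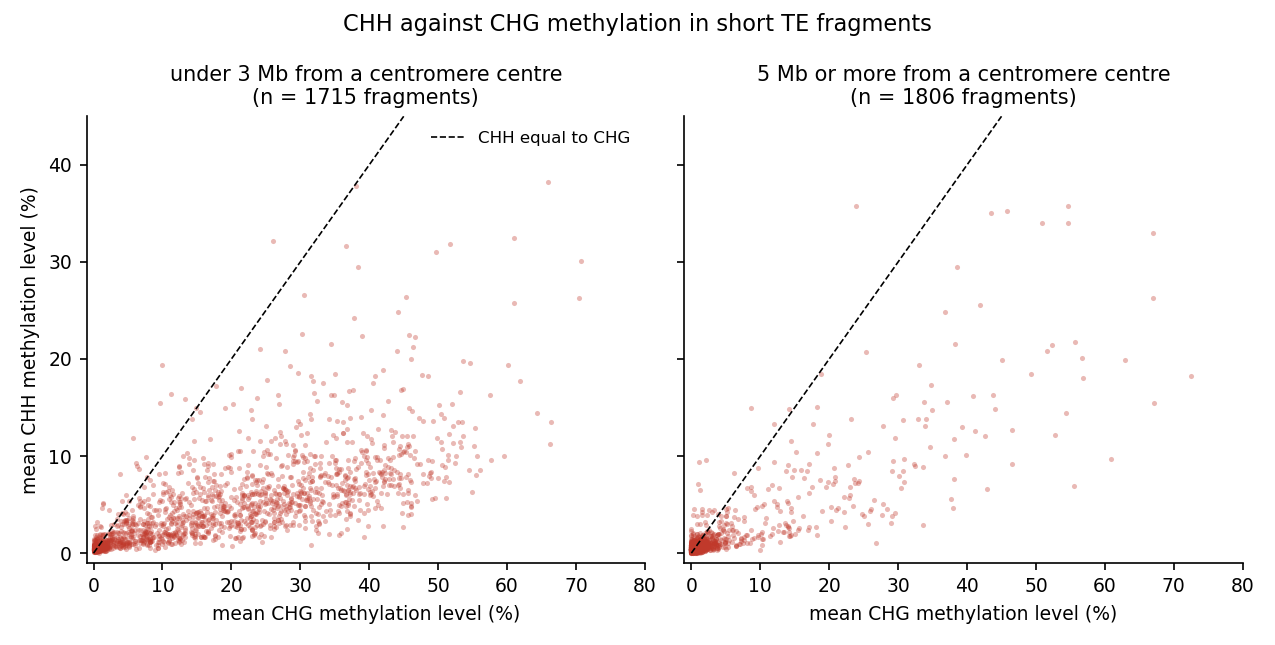
Mean CHH level against mean CHG level (percent, over accessions) of each short fragment with both contexts, for 1715 fragments under 3 Mb (left) and 1806 fragments 5 Mb or more (right) from a centromere centre, with a dashed line where both are equal. Near the centromeres most points lie far below the line, and in the arms most lie in the corner at low values, with a median of 0.521% in CHG.

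Some single fragments show the range of the balance. The highest CHH level was that of AT5TE30795, 177 bp on chromosome 5 from 8511093 to 8511269, outside annotated genes, with a lowest, median and highest accession at 5.56%, 38.9% and 73.0% CHH. Its CHG level of 43.2% ± 19.2 lay within 1 SD of its CHH level of 39.2% ± 15.7 (SD, n = 32). AT3TE71530 followed with 39.0% ± 12.05 CHH and 64.7% ± 10.4 CHG. It spans 313 bp of chromosome 3 from 17658724 to 17659036, 370 bp from CHL, which encodes a lipocalin of the chloroplast. AT4TE27660, on chromosome 4 from 6479410 to 6479737, had 38.2% ± 12.2 CHH and 65.9% ± 10.8 CHG. In all 3, accession means spread widely and no accession difference passed the test, with adjusted p from 0.742 to 0.877 in CHH by the limma-moderated F-test described below.

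The largest excess of CHH over CHG was at AT5TE95310 on chromosome 5 (26464778 to 26465111), 14.2 Mb from the centromere. Its CHH level ran from 14.3% in 9888 over a median of 35.8% to 59.5% in 6076, while its CHG level had a median of 24.7% and reached 61.1%. AT5TE29735 (8226894 to 8227023 on chromosome 5), overlapping the protein-coding locus AT5G24220, had a median of 10.3% CHH and of 0% CHG. AT5TE61935 (17147567 to 17147881 on the same chromosome) had a median of 10.9% CHH and of 0% CHG, with CG at a median of 73.9%.

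The opposite pattern was strongest at AT2TE22475 on chromosome 2 (5557066 to 5557360), 505 bp from CHR5, a gene for a chromatin remodelling factor. CHG there was 66.2% ± 12.5 and CHH 11.3% ± 8.63. AT5TE57735 on chromosome 5 (15992528 to 15992876), overlapping the TE gene AT5G39955, had 60.4% ± 12.1 CHG against 5.73% ± 2.35 CHH. AT2TE76170 on chromosome 2 (16920992 to 16921448), in the distal arm, had 72.5% ± 14.95 CHG, the highest mean CHG of any short fragment with both contexts, and 18.2% ± 6.56 CHH.

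Short fragments near the centromeres were more methylated than those in the chromosome arms in every context. Centromere centres were placed at 14.9, 4.5, 14.2, 4.1 and 12.3 Mb on chromosomes 1 to 5, the middle of the 2 Mb richest in TE genes. Placing them where protein-coding loci were fewest shifts them by 0.2, 0, 1.2, 0 and 0.3 Mb. Under 3 Mb from the centres set by TE genes, short fragments had 62.7% ± 2.83 CG, 17.8% ± 2.13 CHG and 5.08% ± 0.588 CHH. At 5 Mb or more they had 25.2% ± 1.85, 3.40% ± 0.431 and 2.31% ± 0.294. The near minus far differences in percentage points were 37.5 ± 1.73 (CG), 14.4 ± 1.81 (CHG) and 2.76 ± 0.435 (CHH), each positive in 32 of 32 accessions (adjusted p = 1.1e-05, sign-flip permutation test). In none of the 3 contexts did the ranges of the 32 accessions at the near and far distances overlap. The CHG level of the far fragments was from 2.68% in 5779 to 4.26% in 9057, and that of the near ones from 13.5% in 10012 to 22.2% in 6911.

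CHH fell less in proportion than CHG with distance, and the ratio over fragments with both contexts rose. It was 0.268 ± 0.0371 near the centromeres and 0.467 ± 0.0608 in the distant arms, a difference of -0.199 ± 0.0342 that was negative in 32 of 32 accessions (adjusted p = 1.1e-05). From under 1 Mb to 10 Mb or more the CHG level went through 23.1%, 18.8%, 13.2%, 6.98%, 3.95% and 2.39%, and the CHH level through 5.42%, 5.33%, 4.58%, 3.75%, 2.54% and 1.86%. The ratio went through 0.226, 0.281, 0.306, 0.397, 0.442 and 0.553 in the same 6 bins. It is not the quotient of the levels just given, since the CHH levels rest on more fragments. Under 1 Mb, 898 fragments gave the CHH level and 461 the ratio, and at 10 Mb or more 1085 and 636. The share of fragments low in every context was 12.4% near the centromeres and 53.3% in the arms, and the share high in both CHG and CHH was 37.5% and 6.95%. The low share carries the limit of exact CG ones given above. Of the arm fragments 69.3% had a mean CHG level under 1%, close to the floor given above. With the floor subtracted the near minus far difference was -0.136, and with CHG values of exactly 1 kept it was 0.0380, the opposite sign.

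**Figure D3:**
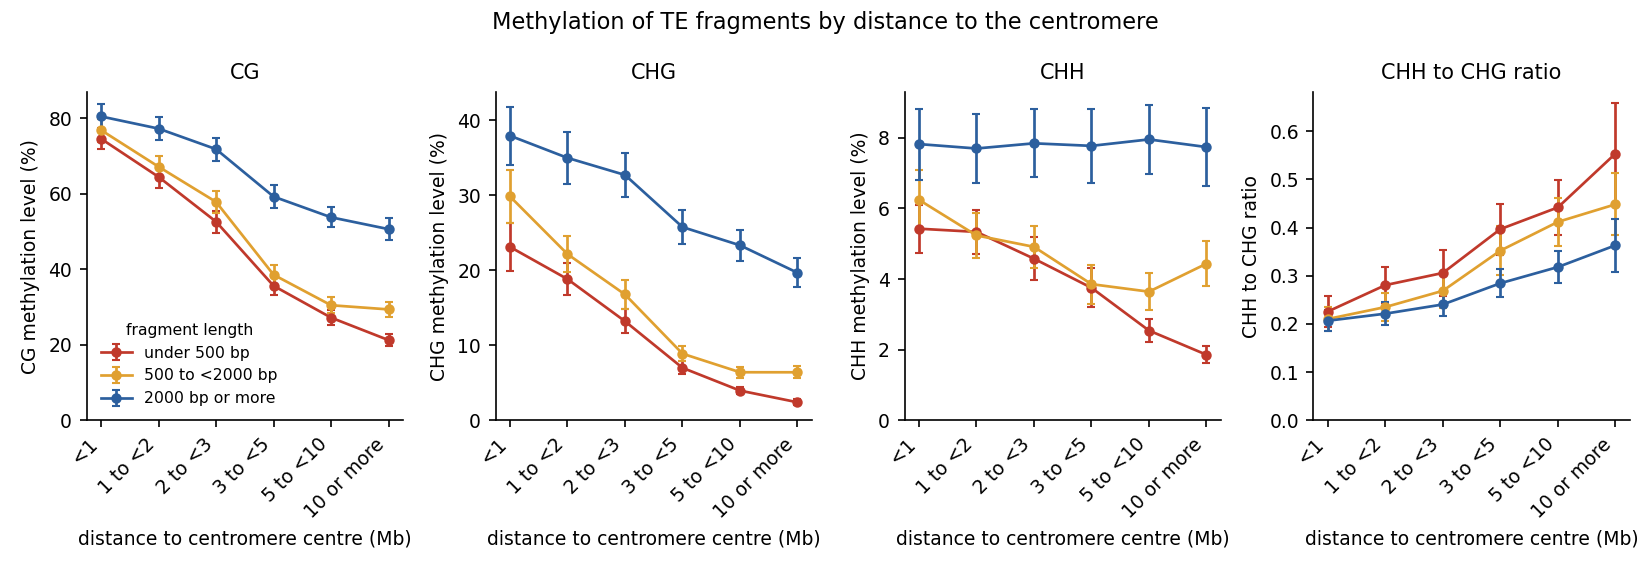
Mean ± SD over 32 accessions of the CG, CHG and CHH level (percent) and of the CHH to CHG ratio in 6 bins of distance to the centromere centre (Mb), for 3 length classes. In short fragments CHG falls from 23.1% to 2.39% and CHH from 5.42% to 1.86%, while the CHH of fragments of 2000 bp or more stays between 7.70% and 7.95%.

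The course along the chromosome differed from that of the longest fragments. In fragments of 2000 bp or more CHH was 7.78% near the centromeres and 7.90% in the arms, so the near minus far difference of short fragments was larger by 2.88 ± 0.816 percentage points, in 32 of 32 accessions (adjusted p = 1.1e-05). In CG the near minus far difference was larger by 12.7 ± 2.35 points, also in 32 of 32, but with CG values of exactly 1 as missing the sign turned, to -7.60. In CHG, where the longest class had 36.0% and 22.4%, the difference was larger by 0.861 ± 1.51 points in 25 of 32 accessions (adjusted p = 0.00329). That sign turned to -8.99 with the fragments that had a value in every library and to -20.2 with medians over fragments, and the sign of the CHH value turned to -2.94 with medians. The ratio of the longest class went from 0.217 to 0.327, and the near minus far difference of the short fragments less that of the longest was -0.0886 ± 0.0270, negative in 32 of 32 accessions (adjusted p = 1.1e-05). That sign turned to 0.117 with CHG values of exactly 1 kept and to 0.238 with the values as deposited.

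At like CHG levels, methylated short fragments in the arms carried more CHH than those near the centromeres. This comparison was chosen after the data were seen. Fragments with a mean CHG of at least 20% numbered 713 near the centromeres and 104 in the arms, with CHG levels of 34.0% ± 3.65 and 35.7% ± 3.57. Their CHH levels were 8.15% ± 0.955 and 12.7% ± 1.82, a difference of -4.55 ± 1.48 points that was negative in 32 of 32 accessions (adjusted p = 1.1e-05, sign-flip permutation test). All accessions were read at the same fragments, so this p does not cover the sampling of the 104 arm fragments. The difference was -1.62 with the fragments that had a value in every library, and it turned to 1.16 with CHG values of exactly 1 kept. In the CHG band of 40% or more the median fragment had 9.55% CHH near the centromeres (186 fragments) and 18.4% in the arms (30 fragments). In the band of 5 to under 10% the medians were 2.15% (165 fragments) and 1.99% (56 fragments). The same bands of fragments of 2000 bp or more held medians of 9.86% (687 fragments) and 15.1% (50 fragments) at a CHG of 40% or more, so the arms were also higher in that class.

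The 400 bp windows centred on the start of each fragment, which the authors deposited as promoters and which contain part or all of the fragment, gave a like ratio difference, -0.221 ± 0.0334 (32 of 32 accessions, adjusted p = 1.1e-05). Over the fragments with a value in both, the fragment itself was higher than its window by 6.27 ± 0.675 points in CG and by 0.471 ± 0.125 in CHH, each in 32 of 32 accessions (adjusted p = 1.1e-05). In CHG the fragment was at 9.63% and its window at 9.67%, a difference of -0.0387 ± 0.115 that did not pass the test (adjusted p = 0.0664, negative in 18 of 32). With the round as a replicate block it passed at -0.0496, and without round 3 at -0.0967. The CG difference was -0.104 with CG values of exactly 1 as missing, and the CHH difference was -0.154 with medians over fragments.

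The fragments nearest to and farthest from a centromere did not follow the average in each case. AT5TE43700 (467 bp) lay 0.00758 Mb from the centre of chromosome 5, between 12307343 and 12307809, and had 54.4% ± 34.9 CG, 4.75% ± 8.04 CHG and 1.07% ± 2.08 CHH. Its neighbour AT5TE43650 (12286642 to 12287065), within the TE gene AT5G32627, had 82.7% ± 15.9 CG, 45.9% ± 15.7 CHG and 7.55% ± 5.94 CHH over 27 accessions. At the other end, AT1TE99300 (30368412 to 30368888 on chromosome 1), overlapping AT1G80810, had 3.41% ± 11.3 CG, 0.263% ± 0.655 CHG and 0.313% ± 0.558 CHH. AT1TE98915 (30253350 to 30253650 on chromosome 1) had 81.8% ± 24.9 CG, 22.9% ± 14.6 CHG and 5.72% ± 5.14 CHH over 26 accessions. Accession 9588 had a mean of 2.78% CG there, and in accession 6911 the libraries read 2.70% and 0% in CG and 0% in CHG and CHH, where the median accession had 91.2% CG (adjusted p for an accession difference 1.06e-15 in CG and 0.00205 in CHG, limma-moderated F-test).

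Within the short class, fragments of 400 bp or more had more CHG, and less CHH relative to it, than those of 100 to under 200 bp. Fragments of 400 bp or more had 10.5% ± 1.303 CHG and 3.48% ± 0.419 CHH, and those of 100 to under 200 bp had 8.04% ± 1.003 and 4.05% ± 0.529. The differences were 2.50 ± 0.546 points in CHG, positive in 32 of 32 accessions, and -0.575 ± 0.252 in CHH, negative in 31 of 32 (adjusted p = 1.1e-05 for each, sign-flip permutation test). The ratio was lower in the longer group, 0.297 against 0.344, in 32 of 32 accessions, a difference of -0.0462 ± 0.0254 (adjusted p = 1.1e-05). CG was higher by 1.59 ± 1.16 points in 30 of 32 (adjusted p = 1.1e-05). With CHG values of exactly 1 kept the CHG difference turned to -1.90, and the CG difference turned to -0.233 with fragments that had any value. With the values as deposited they were -14.7 and -8.90. The CHH sign depended on which fragments were compared, since it was 0.268 over fragments passing in all 3 contexts, 0.701 with a value in every library and 0.0238 with medians. The ratio did not follow length throughout. Of the 7627 fragments under 100 bp, 457 passed in CHG. Their ratio was 0.301, close to that of the longest group, with 7.69% CHG. The 1864 that passed in CHH had the lowest CHH of the 5 length groups, 3.03%. In the arms CHH peaked in fragments of 200 to under 300 bp, at 3.49% ± 0.499, with 2.38% ± 0.366 in the next shorter group and 1.99% ± 0.283 in the next longer group. Near the centromeres it stayed between 4.61% and 5.41% in all 5 length groups.

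**Figure D4:**
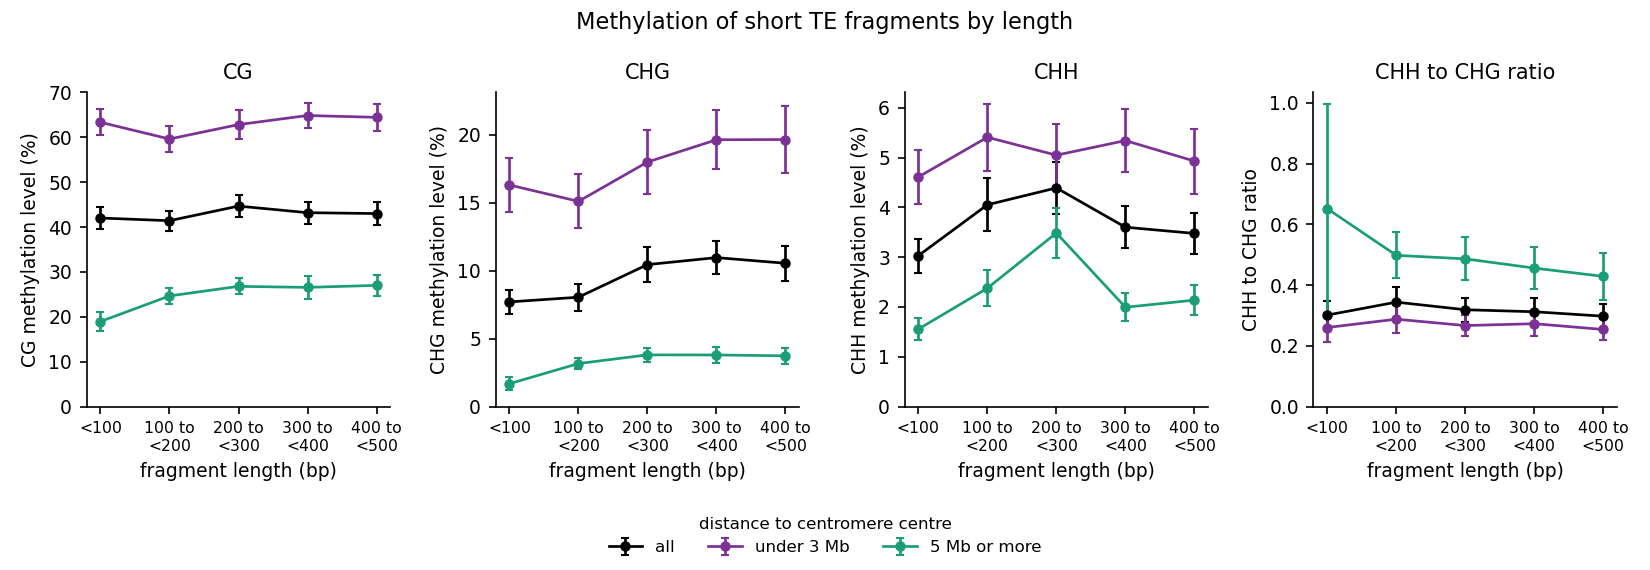
Mean ± SD over 32 accessions of the CG, CHG and CHH level (percent) and of the CHH to CHG ratio of short fragments in 5 length groups (bp), for all distances, under 3 Mb and 5 Mb or more from a centromere centre. The near and far levels stay apart at every length, and the ratio of far fragments under 100 bp has a wide SD, 0.345.

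At the upper length limit, the values just inside and outside were as follows. AT1TE68350 and AT1TE76775 were the first in the annotation order of the greatest length under the limit, with mean CHH levels of 0.389% and 1.68% and CHG levels of 0.230% and 7.56%. AT1TE21950 and AT1TE46620 were the first of 500 bp, with CHH levels of 1.13% and 12.5% and CHG levels of 1.20% and 33.2%.

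Short fragments that overlapped protein-coding loci were less methylated than the others. They had 26.3% ± 1.74 CG, 3.52% ± 0.400 CHG and 1.97% ± 0.252 CHH, against 47.9% ± 2.55, 12.02% ± 1.41 and 4.29% ± 0.497 in fragments outside them. All 3 differences were negative in 32 of 32 accessions, at -21.6 ± 1.34, -8.51 ± 1.06 and -2.32 ± 0.291 points (adjusted p = 1.1e-05, sign-flip permutation test), and the ratio was higher in the overlapping ones, 0.436 against 0.302. The ratio difference turned to -0.0433 with CHG values of exactly 1 kept and to -0.0605 with the values as deposited. Such overlaps were more common in the arms, with 1865 of 5928 fragments against 1049 of 9984 near the centromeres, so the comparison was repeated at 5 Mb or more from the centres, where the differences were -7.14 ± 1.60 points (CG), -2.17 ± 0.502 (CHG) and -1.65 ± 0.319 (CHH), again negative in 32 of 32 accessions (adjusted p = 1.1e-05). The CG value was -0.180 with CG values of exactly 1 as missing and 0.477 with a value in every library. The ratio did not differ detectably there, 0.486 against 0.462, a difference of 0.0234 ± 0.0839 (adjusted p = 0.126, positive in 19 of 32). It passed the test without round 1 (0.0282) and without round 3 (0.0427).

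Accessions differed in the methylation of short fragments beyond the spread between replicates. Of the variance among the 88 libraries, 74.3% lay between accessions in CG, 91.3% in CHG, 75.1% in CHH and 85.5% for the ratio (adjusted p = 1e-05 for each, permutation test of the F statistic, 4 tests, the smallest p that 100000 resamples allow). Accession 6911 had the highest CHG and CHH levels, at 11.7% and 12.3% CHG and at 4.91% CHH in each of its libraries, while 9057 came next in CHG at 11.5% and 6184 in CHH at 4.28%. Accession 10012 had the lowest CHG level, with 7.16%, 7.64% and 7.15% in its libraries. The next lowest, 5779, had a mean of 8.01% and libraries at 8.69%, 8.00% and 7.33%, which overlap those of 10012. The libraries of 6244, the accession with the highest ratio, stood at 0.436 and 0.406, and those of 8366, the lowest, at 0.250, 0.250 and 0.227. These 2 accessions did not overlap, but their neighbours in the order overlapped them, with 5779 at 0.483, 0.380 and 0.374 and 9888 at 0.251, 0.256 and 0.247. The order at the ends of the CHH range is close, since 1741 at 3.00% and 8366 at 3.11% overlapped in their libraries, which ran from 2.90% to 3.18% and from 3.03% to 3.23%.

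Accessions with high CHG were not reliably those with high CHH. Both levels were taken here over the 4405 fragments with both contexts, so the CHH level is not the one ranked above. Over the 32 accessions the Pearson correlation of these CHG and CHH levels was 0.367 (p = 0.0376, adjusted p = 0.0416, permutation test) and Spearman's rho was 0.285 (p = 0.112). Without the outermost accessions 10012 and 6911, r was 0.132 (p = 0.486, permutation test), so the relation rests on them. The call was also lost without round 2 (0.307) or round 4 (0.344). Within rounds 1 to 4 r was 0.392, 0.546, 0.216 and 0.426, over 19, 18, 26 and 25 libraries. CG and CHG had r = 0.363 (adjusted p = 0.0416, rho = 0.354, p = 0.0478), which was 0.314 (p = 0.0915) without 9512 and 6184, 0.240 without round 2 and 0.340 with the round as a replicate block, none of which passed, and -0.0387, 0.342, 0.422 and 0.551 within the rounds. The levels near and far from the centromeres, which come from the same libraries, moved together. For CHG r was 0.785 and rho 0.770, and for CHH r was 0.703 and rho 0.672 (adjusted p of r = 2e-05, permutation test over 4 pairs). Without the outermost accessions r was 0.729 and 0.632, and within rounds it ran from 0.682 to 0.807 in CHG and from 0.482 to 0.902 in CHH.

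The round of growth was visible in CHG. After accession means were removed, the round accounted for 20.9% of the remaining variance in CHG (adjusted p = 0.0153, permutation test within accessions, 4 tests), and 13.4% in CHH (adjusted p = 0.0617). Libraries of round 1 lay 0.288 ± 0.429 points above their accession mean in CHG, 12 of 18 of them above it. CG (adjusted p = 0.692) and the ratio (adjusted p = 0.507) did not pass. The CHG call was lost without round 1, where F was 1.02 in place of 7.14, and also without round 3 (6.31), without round 4 (7.30) and without accession 6909 (5.35). Within each of the 4 rounds, the near minus far difference of short fragments was from 14.2 to 14.7 points in CHG and from 2.68 to 2.86 in CHH, and the ratio difference was from -0.203 to -0.184, with the same sign in all 88 libraries.

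Single fragments were then tested for differences between accessions with a one-way F-test on the fractions, whose variance was moderated with limma over all annotated loci. At an adjusted p under 0.05, 64.0% of all loci tested differed in CG, 20.4% in CHG and 14.0% in CHH. Among short fragments 2677 of 7281 differed in CG (36.8%), 764 of 4044 in CHG (18.9%) and 999 of 8560 in CHH (11.7%), so the shares lay below those of all loci in CG and close to them in CHG and CHH. Fragments of 2000 bp or more differed in 59.9%, 57.2% and 45.1% of cases. Such shares depend on replicate spread and missing values, and in CG on exact ones, so they do not rank the classes by variation. In CG the median SD of a fragment over accessions was 19.1 points in short fragments and 9.03 in the longest class. In CHG it was 4.37 and 8.49, and in CHH 2.03 and 2.82. That SD includes replicate spread as well. Near the centromeres 356 of 1659 short fragments differed in CHG and 424 of 3546 in CHH, and in the arms 253 of 1588 and 361 of 3258, a contrast that was not tested.

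Many of these calls lean on thin data. In 287 of the 764 CHG calls and 460 of the 999 CHH calls, the accession with the highest level had a value in 1 library alone. The 3 largest F values in CHH and in CHG, among fragments of at least 100 bp with enough values in all contexts, were of this kind. AT4TE89320 read 25% CHH in accession 1741, AT5TE82870 20% in 1254 and AT2TE42295 30% in 5772, each in the 1 library with a value, against medians of 0%. In CHG, AT2TE59940 read 50% in accession 9845, AT4TE58750 50% in 9512 and AT1TE86300 40% in 9905, again from 1 library each and against medians of 0%. The calls in such fragments are therefore not backed by a replicate.

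Called fragments differed in how many accessions carried the mark. Of the 764 CHG calls, 161 had a CHG level of at least 20% in 1 accession, 163 in 2 to 5, 161 in 6 to 15, 177 in 16 or more and 102 in none. Of the 999 CHH calls, 274 had a CHH level of at least 10% in 1 accession, 252 in 2 to 5, 147 in 6 to 15, 80 in 16 or more and 246 in none. The 3 accessions with 1 library held 38 of the 161 single-accession CHG fragments and 88 of the 274 in CHH. Accession 6911, with 2 libraries, held 17 and 23, where the median accession held 4 and 5.

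To show differences that replicates do back, the 3 largest F values in CHH and in CHG were taken among the 312 short fragments with a value in all 88 libraries and all 3 contexts, a rule added after the values had been seen. It named 5 fragments. AT3TE66880 is 192 bp long, on chromosome 3 from 16499593 to 16499784, and overlaps the TE gene AT3G45095. It was methylated in accessions 5784 and 6909, while in CG single libraries of 4 other accessions also read 100%, a value that can be missing data. The 4 libraries of 5784 read 40%, 71.4%, 58.3% and 72.2% in CHG and 22.5%, 20.3%, 13.6% and 15.9% in CHH. Those of 6909 read 67.7%, 52.6%, 58.3% and 48.4% in CHG and 8.65%, 7.14%, 8.41% and 22.0% in CHH. No library of another accession exceeded 9.09% in CHG or 8.33% in CHH, so the groups did not overlap in CHG. The adjusted p was 5.86e-28 in CHG and 4.81e-13 in CHH (limma-moderated F-test).

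AT1TE57575, 272 bp on chromosome 1 from 17386595 to 17386866, was high in CG in accessions 6189, at 72.7% and 83.3%, and 6220, at 64.0%, 70.0%, 66.7% and 85.7%. Only 6189 carried CHH above 4%, at 15.4% and 10.6%, together with 33.3% and 53.8% CHG, while 6220 read 15.4%, 30%, 3.70% and 11.8% CHG and at most 3.77% CHH. The accession difference had an adjusted p of 4.96e-14 in CHG and 1.08e-10 in CHH (limma-moderated F-test). The pair of accessions shared high CG at this fragment, and their CHH values did not overlap.

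AT2TE25115, 418 bp on chromosome 2 from 6180980 to 6181397, showed a like split. Accessions 6184 and 9470 had CG levels of 84.6% and 82.8% and of 72.7% and 83.0%, where no other library passed 5%. In CHG 6184 read 30.4% and 42.9% and 9470 read 14.3% and 17.2%. In CHH 6184 read 5.76% and 20.9% and 9470 read 0% and 1.77%. The adjusted p was 6.37e-21 in CHG and 3.73e-05 in CHH (limma-moderated F-test).

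AT1TE54850, on chromosome 1 from 16641357 to 16641748 and overlapping the TE gene AT1G43886, was methylated in several accessions. In CHG accession 8244 read 60% and 54.5%, 6189 read 48.0% and 29.7%, 6184 read 29.2% and 27.8%, and 5779 read 20%, 29.6% and 30.8%. No library of the other accessions exceeded 10%. CG was high in the same accessions and also in 6220, at 62.5% to 66.7%, whose CHG was 0% in every library. The adjusted p was 2.15e-28 in CHG and 0.00177 in CHH (limma-moderated F-test).

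AT2TE28770, 242 bp on chromosome 2 from 7072154 to 7072395, varied by degree. CHH was highest in accession 4807, at 20.3%, 21.1%, 27.3% and 14.6%, and next in 9905 at 22.0% and 0.794%, whose libraries are far apart. In CHG, 9518 read 55.6%, 59.1%, 46.7% and 50% and 4807 read 38.9%, 64.7%, 47.4% and 50%. The adjusted p was 4.22e-10 in CHG and 3.32e-08 in CHH (limma-moderated F-test). AT1TE76775, one of the fragments at the length limit, lies on chromosome 1 from 23295038 to 23295536 and overlaps the protein-coding locus AT1G62880 and the TE gene AT1G62890. Its CHG level was 38.7% and 42.2% in 1254 and from 19.4% to 37.3% in the 4 libraries of 4807, while 22 of 32 accessions were under 10% (adjusted p = 6.23e-21 in CHG and 5.48e-07 in CHH). None of its accessions exceeded 6.77% in CHH.

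**Figure D5:**
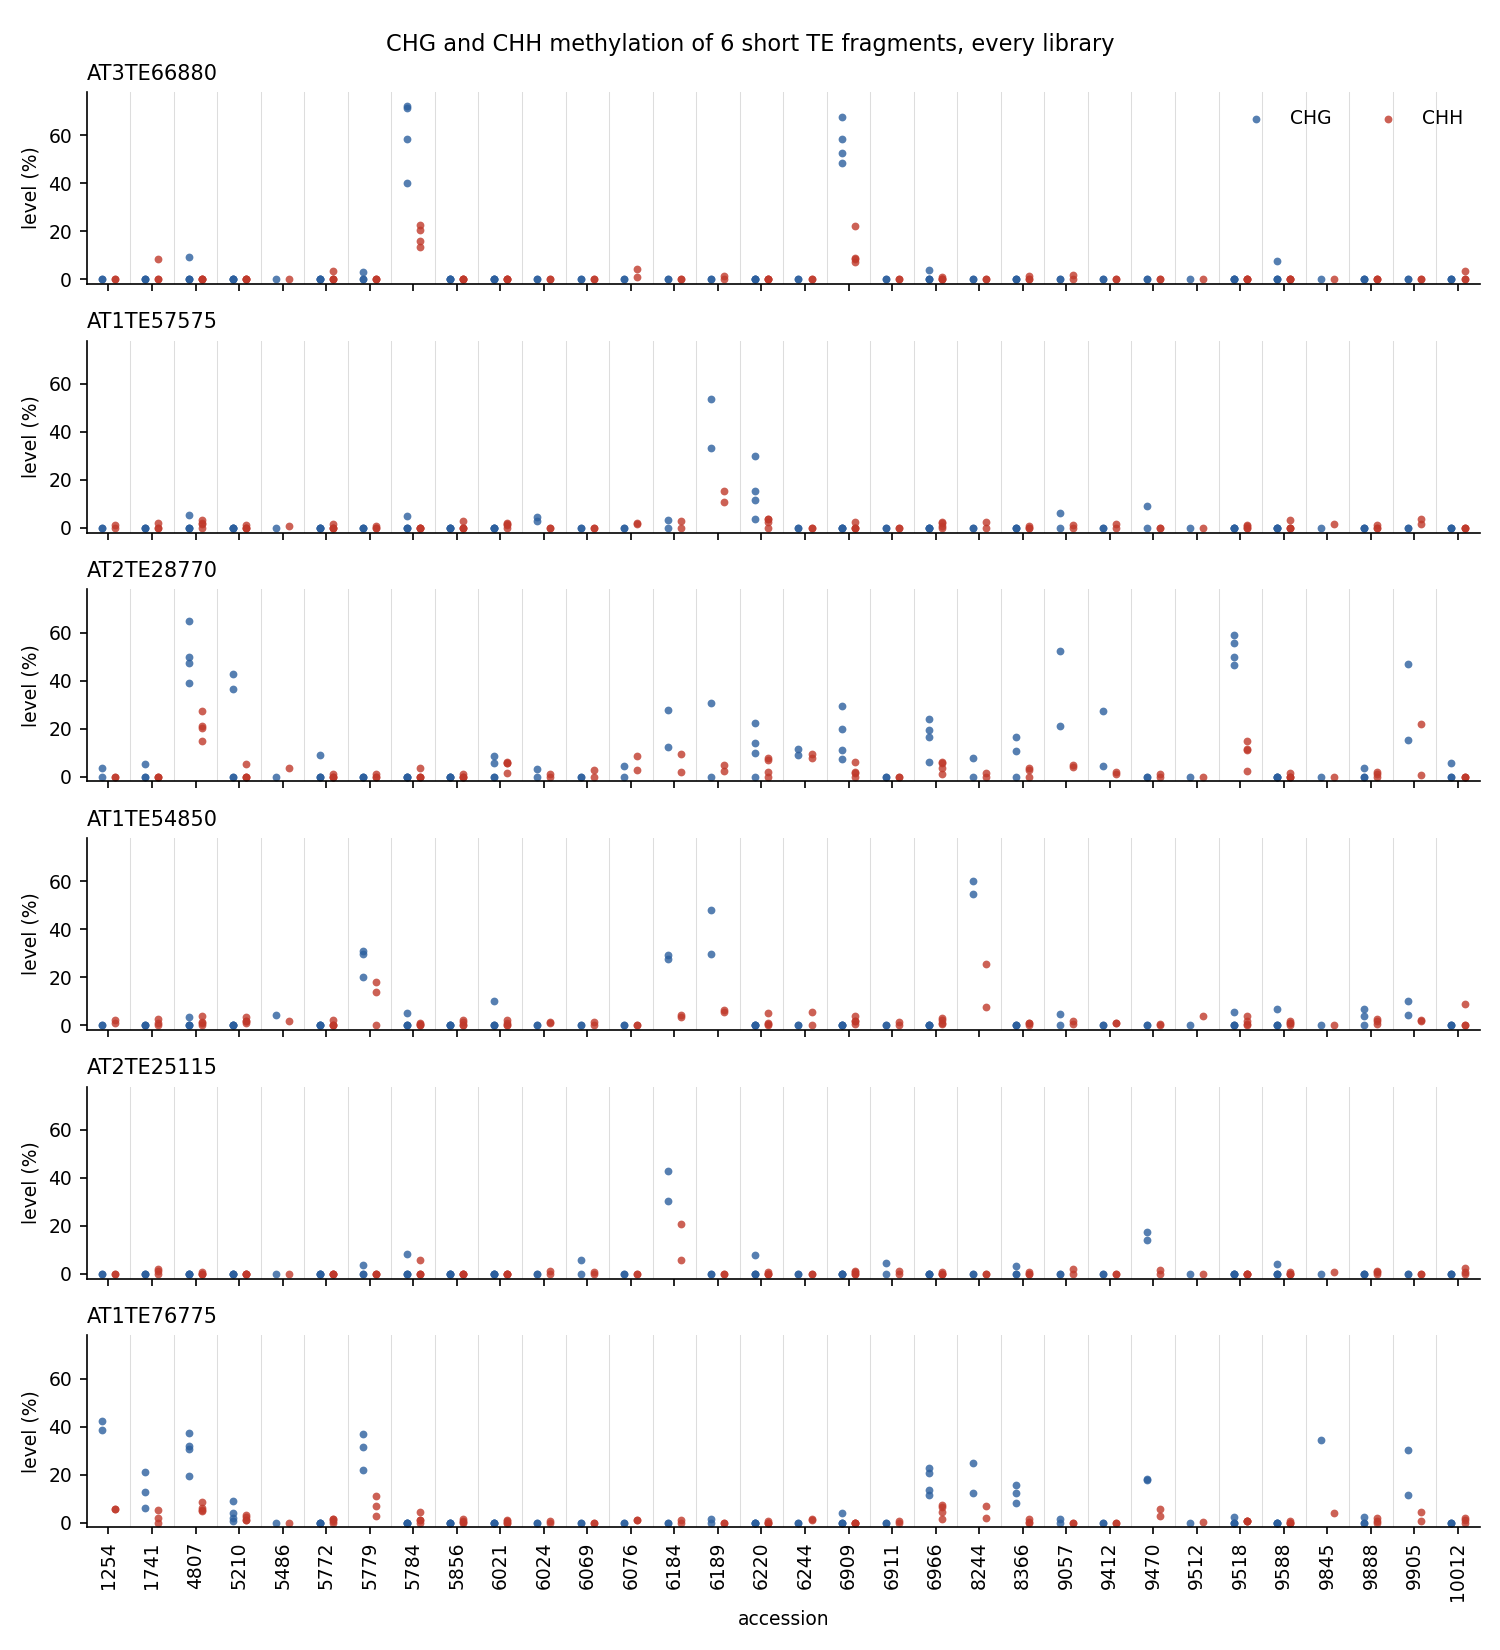
CHG (blue) and CHH (red) methylation level in percent of 6 short fragments in every library, by accession. In CHG, AT3TE66880 is high in 5784 and 6909 alone, at 40% to 72.2%, while the CHH of 6909 overlaps that of other accessions. AT2TE25115 is methylated in 6184 and, in CHG, 9470, while AT2TE28770 and AT1TE76775 take many levels.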

How the data were processed

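The authors deposited the methylation level of each locus and library as a fraction from 0 to 1, in 12 tables, of which 6 (Araport11 gene bodies and 400 bp windows in 3 contexts) were used. Paired 100 bp reads and the genome build TAIR10 are stated in the labels and the submitters' processing notes, while for the aligner, the caller and the formula of the fraction the entry is: not given in the sources used here. Because the deposited fractions carry no coverage, no counting error can be given.

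Where CHH was exactly 1 the locus was left out of that library in every context. Where CHG alone was exactly 1, its CHG value was left out, and CG rows holding nothing but 1 were removed. No label states this. Loci needed a value in at least 80% of libraries. Levels were means over fragments per library and then over the libraries of an accession, and the 32 accessions were the unit of replication. The ratio was mean CHH over mean CHG of the same fragments. Distances ran from the fragment's midpoint to the middle of the 2 Mb window, in steps of 0.1 Mb, with most TE genes. Overlaps counted from 1 bp. Symbols were looked up in RefSeq (assembly TAIR10.1), for names alone.

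Paired differences had a two-sided permutation test that flips their signs over accessions. Accession and round terms were tested by permuting libraries (rounds within accessions), and correlations by permuting accessions. Each used 100000 resamples with Benjamini-Hochberg adjustment within families of 34, 4, 4 and 4 tests. Single loci were tested with a one-way F-test moderated with limma 3.58.1 (squeezeVar) in R 4.3.3, adjusted over 44376, 39541 and 45717 loci in CG, CHG and CHH. On simulated data with 200 changed loci per context, the test recovered 72% (CG), 70% (CHG) and 69% (CHH) of them. It also called 6, 7 and 5 unchanged loci. The simulated noise was normal, unlike bounded fractions, so this does not vouch for calls at fragments near the floor. Zero replicate variances were offset by limma, and 4, 28 and 12 of the short fragments called had none. Accessions with 1 library have no replicate variance of their own in this test. Python 3.11.15, NumPy 2.4.6, pandas 2.3.3, SciPy 1.17.1 and matplotlib 3.10.9 did the rest.

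Replicate numbers stand for rounds of sowing and collection per the series' design text, so they pair libraries across accessions, and a fit with the replicate number as a block was an alternative.

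Named fragments of at least 100 bp with a value in 80% of libraries in all 3 contexts were the 3 highest in CHH, in CHH minus CHG and in CHG minus CHH, the 3 with the largest F in CHH and in CHG, the 2 nearest to and the 2 farthest from a centromere centre, and the 2 on each side of the length limit. The members, lists and rules were chosen with earlier results of these data known.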

Additional observations from a re-analysis of the deposited data

Results flagged for a closer look

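In 44 groups of 4 libraries of an accession (11 accessions, 4 measures), 5 had a library that stood apart from the other 3 by Dixon's test, where chance gives about 2.2. In CHG, replicate 1 of accession 5772 was highest at 9.72%, above 8.16% to 8.26% in the others. Replicate 2 of 5856 was lowest at 10.04%, and replicate 3 of 6220 was lowest at 9.54%. In CHH, replicate 1 of 5772 was highest at 4.19%, above 3.47% to 3.53%, and replicate 1 of 5784 was highest at 4.82%, above 3.75% to 3.88%. The CHH to CHG ratio of these libraries was not marked by the test. Replicate 1 stands for the first round of growth, whose libraries lay above their accession mean in CHG in 12 of 18 cases.

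The near minus far difference of short fragments departed from that of fragments of 2000 bp or more in every measure, by 12.7 percentage points in CG, 0.861 in CHG, 2.88 in CHH and -0.0886 in the ratio, each past the sign-flip permutation test over 32 accessions (adjusted p = 1.1e-05, and 0.00329 in CHG). The 4 values each turned sign under at least 1 other way of processing, given with the limits of the results.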

How the results depend on the processing

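Of 702 values of 52 results under the alternatives, 610 kept their direction and their side of the threshold, 40 turned sign, 23 lost the threshold, 6 gained it and 23 levels or counts moved. No alternative turned the sign of the near minus far difference in CG, CHG or CHH. Depth per value is unknown, CG levels depend on how exact ones are read, and 6 of 8 differences in the ratio turned sign when exact ones in CHG were kept.

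With the values as deposited, the levels were 72.5% (CG), 59.98% (CHG) and 37.0% (CHH), and the calls between accessions 6090, 6078 and 9222. Short minus middle fragments was 11.3 (CG), 23.2 (CHG) and 15.5 (CHH), short minus long 15.3 (CHG) and 16.5 (CHH), and the near minus far ratio 0.108, against the longest class 0.238 and in windows 0.0615. The length contrast within short fragments was -8.90 (CG) and -14.7 (CHG), the protein-coding overlap ratio -0.0605 and in the arms -0.00800, fragment minus window 23.3 (CHG), CHH at a CHG of at least 20% 9.73, and F of the round 1.23. By construction each exact one counts as 100% here.

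With exact ones kept in CHG, the CHG level was 22.9%, short minus middle 2.04 (CHG), and the ratio -0.0512 against the middle and -0.0503 against the longest class. The near minus far ratio was 0.0380 and against the longest class 0.117. The length contrast was -1.90 (CHG), the overlap ratio -0.0433 and in the arms -0.0623, fragment minus window 7.56 (CHG), CHH at a CHG of at least 20% 1.16, F of the round 0.977 and r of CHG with CHH 0.277. With exact ones in CG as missing, the CG level was 13.8% with 1333 calls, the near minus far difference against the longest class -7.60, the overlap difference in the arms -0.180 and fragment minus window -0.104.

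With a value in every library, the levels were 31.7%, 7.35% and 2.70%, and the calls 403, 58 and 104, since fewer fragments were tested. The near minus far CHG difference against the longest class was -8.99, the length contrast 0.798 (CG) and 0.701 (CHH), the overlap in the arms 0.477 (CG) and 0.268 (ratio), fragment minus window 0.244 (CHG), F of the round 5.19 and r of CG with CHG 0.291. With any value, the levels were 48.1%, 11.1% and 4.49%, the length contrast -0.233 (CG), the overlap ratio in the arms -0.0202, fragment minus window -1.16 (CHG) and F of the round 5.23. Medians over fragments were 25.7% (CG), 0% (CHG) and 0% (CHH), which left 0 for CHG minus CHH, for the length contrast in CHG, for the overlap in CHG and CHH and for the overlap in the arms in every context, and no ratio. With medians the near minus far difference against the longest class was -20.2 (CHG) and -2.94 (CHH), the CHH length contrast 0.0238 and fragment minus window -0.154 (CHH).

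With the fragments passing in all 3 contexts, the levels were 38.2% (CG) and 3.17% (CHH), the CHH length contrast 0.268 and fragment minus window 0.0270 (CHG), which was 0.0616 with fragments of at least 100 bp. With the floor subtracted the overlap ratio in the arms was -0.0542. The replicate block moved fragment minus window in CHG past the threshold (-0.0496), moved r of CG with CHG off it (0.340) and changed no other call. With it the near minus far difference was 14.5 in CHG and -0.199 in the ratio. Without 6909, F of the round was 5.35. Leaving out each replicate in turn, F of the round ran from 1.02 (without round 1) to 9.38, r of CHG with CHH from 0.307 to 0.440, r of CG with CHG from 0.240 to 0.474, the overlap ratio in the arms from 0.0276 to 0.0427 and fragment minus window in CHG from -0.0967 to -0.00527. Except as given by construction above, the cause was not tested.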

Other observations

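Short fragments that overlapped a TE gene and no protein-coding locus had the highest levels by location when all distances were pooled, and 1469 of the 1732 lay near the centromeres. At 5 Mb or more from the centres they had 30.97% ± 4.08 CG (46 fragments) and 3.76% ± 0.937 CHH (51 fragments). Those over a longer TE fragment and no gene of either kind had higher levels, 55.0% ± 4.74 (29 fragments) and 6.21% ± 1.20 (37 fragments). The SD is over accessions and does not measure the spread between so few fragments. Over all distances the fragments overlapping TE genes had 70.1% ± 2.95 CG, 25.2% ± 3.18 CHG and 5.77% ± 0.770 CHH (SD, n = 32 accessions), with a CHH to CHG ratio of 0.217 ± 0.0244. Of the 13546 fragments that overlapped no gene of either kind and no longer fragment, 4882 passed in CG, 2738 in CHG and 5738 in CHH. These had 44.8% ± 2.53 CG, 9.90% ± 1.16 CHG and 4.09% ± 0.494 CHH, with a ratio of 0.337 ± 0.0476. Near the centromeres the TE-gene fragments had 28.0% ± 3.54 CHG against 16.7% ± 1.97 in the free ones. These are descriptions without a test.

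Near the centromeres, levels also went with the distance to the nearest protein-coding locus. Fragments under 500 bp from one, without overlap, had 53.0% ± 3.37 CG and 12.9% ± 1.36 CHG, and those 2000 bp or more away had 74.1% ± 3.03 and 23.4% ± 2.99, while CHH was 5.08% ± 0.688 and 5.61% ± 0.682. The ratio was 0.367 ± 0.0649 in the first group and 0.234 ± 0.0303 in the last. In the arms CHG had no such order, at 4.05% ± 0.604 and 4.13% ± 0.810. CG and CHH were lower in the last group than in the first there, the opposite direction. CG was 29.3% ± 2.30 in the first and 23.2% ± 2.61 in the last, and CHH 3.00% ± 0.448 and 2.40% ± 0.410.

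The 5 chromosomes had the same order. Under 3 Mb from the centre the CHG level of short fragments ran from 16.3% ± 1.70 on chromosome 1 to 19.5% ± 2.59 on chromosome 3, and at 5 Mb or more from 2.36% ± 0.715 on chromosome 4 to 3.93% ± 0.628 on chromosome 2. The ratio was lower near than far on each of them, at 0.261 to 0.280 against 0.439 to 0.545.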
